A study of Mus musculus with 8 samples.

Results

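The magnesium handling genes are 10 genes whose products move magnesium across tubule cells or regulate that movement: Trpm6, Trpm7, Cnnm2, Cnnm4, Slc41a1, Slc41a3, Egf, Fxyd2, Casr and Pvalb. They were chosen by name, with earlier results of these data known, so their counts beside those of all genes are a description. Each was read from the probe set that the platform annotation assigns to that gene alone, and each member had exactly 1 such probe set, so all 10 of 10 were measured among 19936 genes tested. They were followed in whole-kidney RNA hybridised to 8 Affymetrix arrays, 4 labelled mutant (female mice carrying Pax8-rtTA, the LC-1 transgene and Vhl-floxed alleles) and 4 labelled control (female littermates, whose genotype is given only as control). Pax8-rtTA drives a doxycycline-dependent activator in renal tubule epithelium, LC-1 carries the Cre recombinase that it switches on, and Vhl makes the adaptor protein through which hypoxia-inducible factor (HIF) is degraded. Mice of both groups shared a mixed C57BL/6 - SV127 background, were 3 weeks old when given doxycycline at 0.2 mg/ml in water with 5% sucrose, had it for 2 weeks, returned to plain water for 1 week, and were 6 weeks old at death.

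Most filtered magnesium is taken back between the cells of the thick ascending limb, through pores built from claudins and driven by the voltage across the epithelium. The final adjustment is made through the cells of the distal convoluted tubule, where the channel TRPM6 lets magnesium in from the urine and transporters of the opposite membrane pass it to the blood. Epidermal growth factor made in this segment raises TRPM6 activity, the sodium pump and its gamma subunit set the gradients, and the calcium-sensing receptor restrains reabsorption in the thick limb. RNA of the whole kidney mixes all segments, so in these data more cells of a segment and more RNA per cell cannot be told apart.

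The labels were checked first. Vhl read 8.25, 8.32, 8.46 and 8.33 on the log2 scale in the arrays labelled mutant, against 8.01, 7.99, 7.96 and 8.22 in the arrays labelled control (log2 difference 0.29, limma adjusted p = 0.0387, and 0.0558 with the replicate number as a block), so the targeted gene was not lower under the mutant label. Leaving out any 1 array other than mutant array 1 or control array 4 also ended that call (limma adjusted p from 0.0785 to 0.114), as did leaving out mutant arrays 1 and 2 (0.0661) or 3 and 4 (0.123). Which part of Vhl the probe set reads is not known from the sources used. Egln3 and Car9, a prolyl hydroxylase and a carbonic anhydrase gene that HIF induces, were lower in the arrays labelled mutant by log2 differences of -2.96 and -2.88. Both were chosen knowing that earlier results of these data showed them against the labels, so they are a description and no independent check. The labels are therefore used below as names of arrays only, and no direction is one of Vhl loss. Within the mutant label, arrays 1 and 2 lay at 14.5 and 6.99 on the principal component of next largest variance and arrays 3 and 4 at -16.3 and -14.2. Each group comparison of the main fit was also computed without either pair. The centrings on segment markers and the nearest profiles were computed with all arrays only. Of the 7 proximal tubule markers examined as a check of the tissue, all 7 were measured, with a mean log2 value of 11.8 to 12.2 per array labelled mutant and 11.7 to 11.9 per array labelled control.

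Of the 10 members, 4 were higher in the arrays labelled mutant and 0 were lower (limma with Benjamini-Hochberg adjustment over all genes, adjusted p under 0.05). The 4 were Trpm6, Casr, Cnnm2 and Slc41a3 on the deposited scale; centred on distal convoluted tubule markers, which puts 97.8% of all genes below 0, Casr, Cnnm2 and Slc41a3 lay below 0 too. Over all genes 2.59% were called higher, 4.64% lower and 7.23% in either direction. In 6 of 10 members the 4 arrays labelled mutant all lay above the 4 arrays labelled control, which was so for 6.57% of all genes. The median log2 difference of the members was 0.18, and that of all genes was 0.03. The count of 4 was 2 without mutant array 2 or without control array 1, 3 or 4, and it was 1, Trpm6 alone, without mutant arrays 1 and 2.

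**Figure D1:**
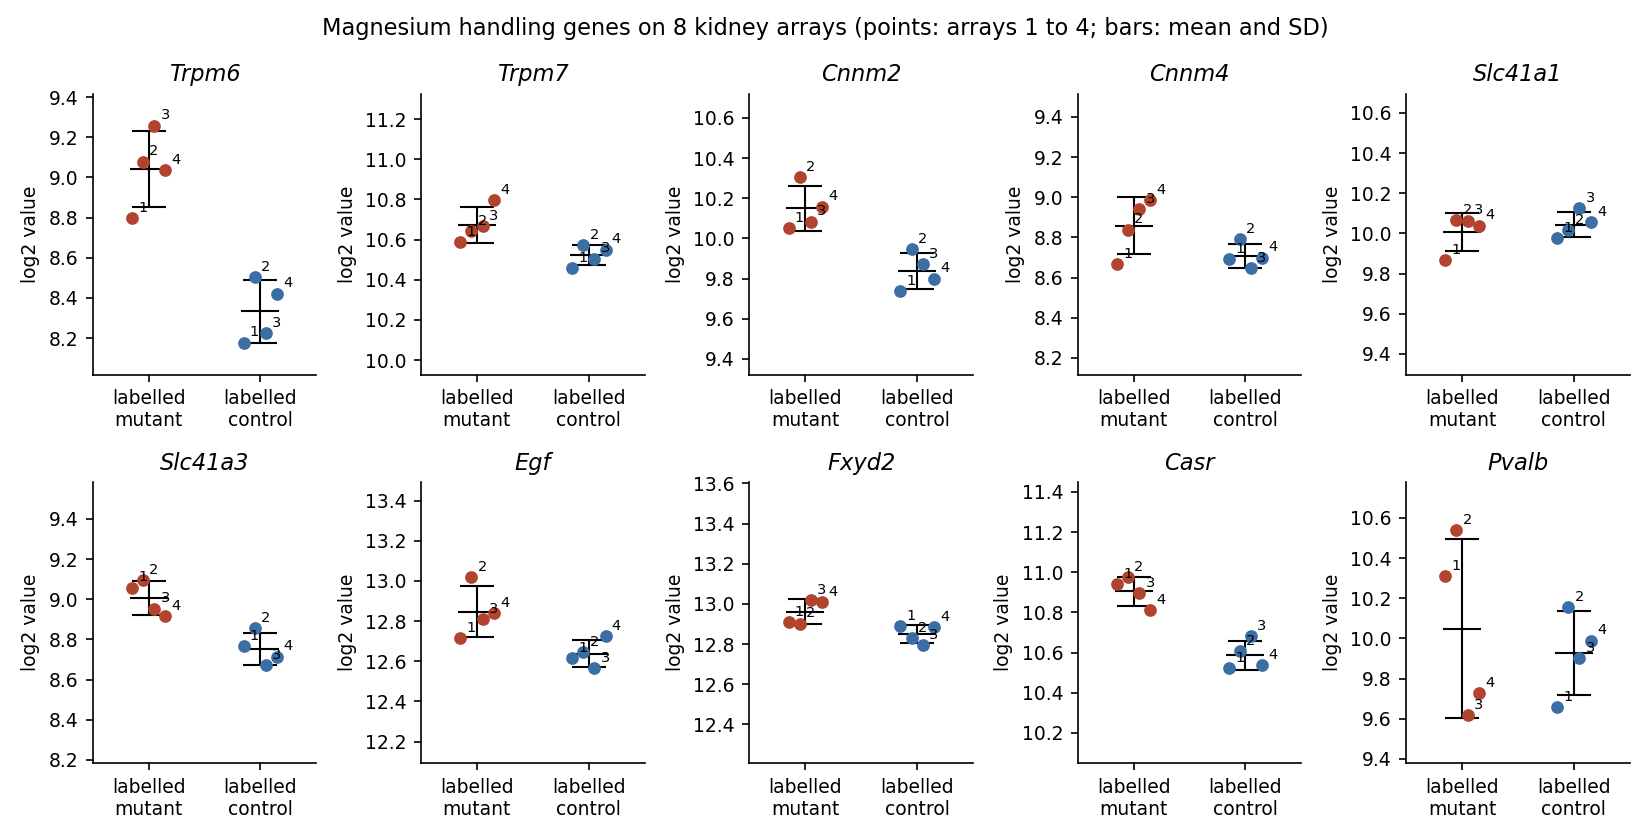
Log2 value of each of the 10 magnesium handling genes on the arrays labelled mutant (red, left) and labelled control (blue, right), 1 panel per gene, each panel spanning the same range of log2 units around its own centre. Points are arrays with their replicate number, and bars are the mean and SD of 4 arrays. Trpm6 shows the widest gap between the groups, and Pvalb shows mutant arrays 1 and 2 (10.31 and 10.54) well above the remaining pair, mutant arrays 3 and 4 (9.62 and 9.73).

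Trpm6 and Trpm7 encode the channel-kinases, ion channels fused to a protein kinase. Trpm6, the magnesium entry channel of the distal convoluted tubule, read 8.80, 9.08, 9.26 and 9.04 in the arrays labelled mutant, against 8.18, 8.50, 8.23 and 8.42 in the arrays labelled control. The lowest array labelled mutant lay above the highest array labelled control. The mean of Trpm6 was 9.04 ± 0.190 under the mutant label and 8.33 ± 0.156 under the control label (SD, n = 4 each), a 1.64-fold rise (log2 difference 0.71, 95% interval 0.48 to 0.94, limma adjusted p = 0.00356). Its call held under all 17 other settings tried at the same threshold (limma adjusted p from 0.00152 to 0.0244). The 17 settings here and below leave out the marker centrings, which are given apart. Trpm7, the relative found in nearly all cell types, read 10.59, 10.64, 10.67 and 10.80 in the arrays labelled mutant, against 10.46, 10.57, 10.50 and 10.55 in the arrays labelled control. These groups lay next to each other without overlap, and Trpm7 did not pass the test (log2 difference 0.15, 95% interval 0.02 to 0.28, limma adjusted p = 0.169).

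Cnnm2 and Cnnm4 encode membrane proteins of the basolateral side that are needed for magnesium to leave epithelial cells, CNNM2 in the distal nephron and CNNM4 chiefly in the intestine. Cnnm2 read 10.05, 10.30, 10.08 and 10.16 in the arrays labelled mutant, against 9.74, 9.95, 9.87 and 9.80 in the arrays labelled control. All 4 arrays labelled mutant lay above all 4 labelled control, and Cnnm2 was 1.24-fold higher (log2 difference 0.31, SE 0.0710, limma adjusted p = 0.0274). Cnnm2 did not pass when mutant array 2 or 4 was left out, when control array 1, 3 or 4 was left out, or with either pair of mutant arrays, 1 and 2 or 3 and 4, removed (limma adjusted p from 0.0606 to 0.0799), with the direction kept. Cnnm4 read 8.67, 8.84, 8.94 and 8.99 in the arrays labelled mutant, against 8.69, 8.79, 8.65 and 8.70 in the arrays labelled control. Mutant array 1 lay among the control arrays, and Cnnm4 did not pass (log2 difference 0.15, 95% interval -0.01 to 0.32, limma adjusted p = 0.270).

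Slc41a1 and Slc41a3 encode carriers related to bacterial magnesium transporters, and SLC41A1 works as a sodium-magnesium exchanger. Slc41a3 read 9.06, 9.10, 8.95 and 8.92 in the arrays labelled mutant, against 8.77, 8.86, 8.67 and 8.71 in the arrays labelled control. The groups did not overlap, and Slc41a3 was 1.19-fold higher under the mutant label (log2 difference 0.25, SE 0.0627, limma adjusted p = 0.0384). This was the weakest of the 4 calls. It did not pass with array weights (limma adjusted p = 0.0504), when mutant array 1, 2 or 3 was left out, when control array 1, 3 or 4 was left out (0.0559 to 0.114 over these) or without mutant arrays 1 and 2 (0.217). Slc41a1 read 9.87, 10.06, 10.06 and 10.04 in the arrays labelled mutant, against 9.98, 10.02, 10.12 and 10.06 in the arrays labelled control. It was the member with the smallest difference (log2 difference -0.04, 95% interval -0.17 to 0.10, limma adjusted p = 0.775), and the sign turned without mutant array 1 (0.01).

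Egf encodes the epidermal growth factor precursor, Fxyd2 the gamma subunit of the sodium pump and Casr the calcium-sensing receptor. Casr read 10.94, 10.98, 10.90 and 10.81 in the arrays labelled mutant, against 10.52, 10.61, 10.68 and 10.54 in the arrays labelled control. All arrays labelled mutant lay above all labelled control, and Casr was 1.25-fold higher (log2 difference 0.32, SE 0.0589, limma adjusted p = 0.0102). The call held without any 1 array and was lost without mutant arrays 1 and 2 together (limma adjusted p = 0.0761). Egf read 12.72, 13.02, 12.81 and 12.84 in the arrays labelled mutant, against 12.62, 12.65, 12.57 and 12.73 in the arrays labelled control. Mutant array 1 lay just below control array 4, so the groups overlapped, and Egf did not pass (log2 difference 0.21, 95% interval 0.05 to 0.36, limma adjusted p = 0.119). Fxyd2 read 12.91, 12.90, 13.02 and 13.01 in the arrays labelled mutant, against 12.89, 12.83, 12.79 and 12.88 in the arrays labelled control. The groups lay next to each other without overlap, and Fxyd2 did not pass (log2 difference 0.11, 95% interval -0.01 to 0.23, limma adjusted p = 0.258).

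Pvalb encodes parvalbumin, a calcium-binding protein of the early distal convoluted tubule and of fast skeletal muscle. It read 10.31, 10.54, 9.62 and 9.73 in the arrays labelled mutant, against 9.66, 10.16, 9.90 and 9.99 in the arrays labelled control. Mutant arrays 1 and 2 were the highest of all 8 arrays, while mutant array 3 was the lowest. The SD was 0.446 in the arrays labelled mutant, the largest of any member in either group, and 0.209 in the arrays labelled control. Pvalb did not pass (log2 difference 0.12, 95% interval -0.32 to 0.56, limma adjusted p = 0.750), and the interval covers differences in both directions. The log2 difference was -0.25 when mutant arrays 1 and 2 were left out and 0.50 when mutant arrays 3 and 4 were, and neither value passed (limma adjusted p = 0.365 and 0.0591). Of the 7 skeletal muscle markers 0 passed, their mean log2 value was 7.07 to 7.18 per array labelled mutant and 6.93 to 7.08 per array labelled control, and their part in the spread of Pvalb was not tested.

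**Figure D2:**
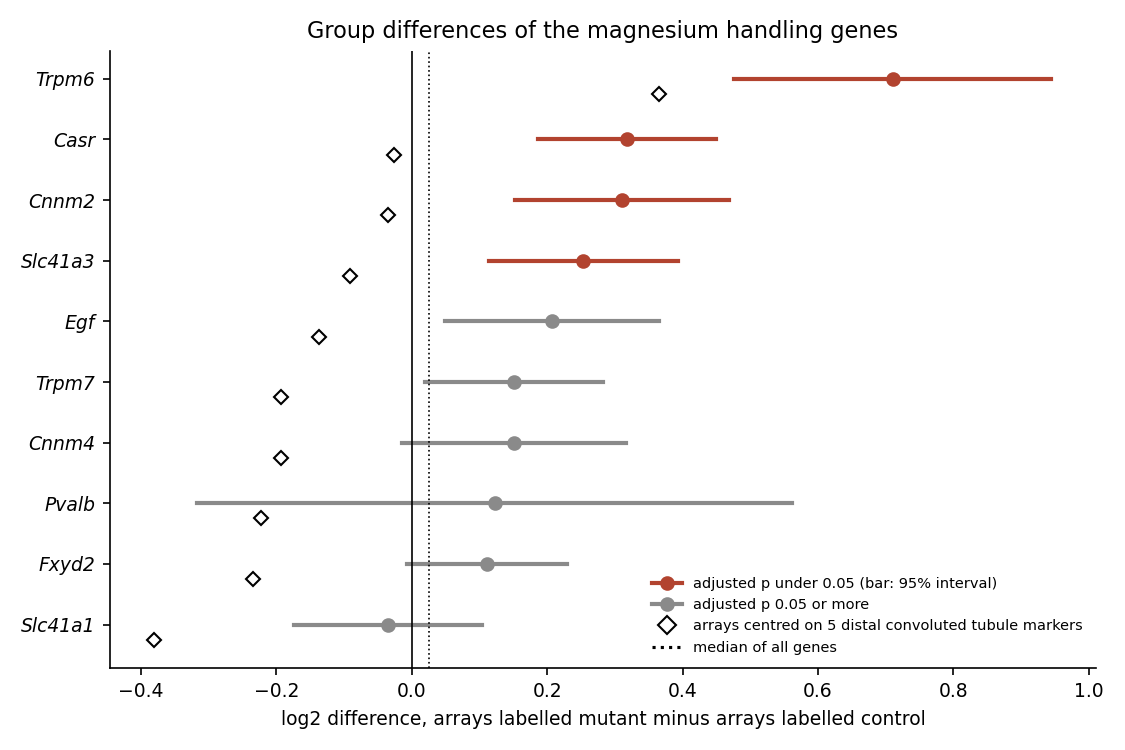
Log2 difference of each magnesium handling gene, arrays labelled mutant minus arrays labelled control, with its 95% interval (bars; red where the adjusted p was under 0.05, grey otherwise). Open diamonds give the same difference after each array was centred on its mean of 5 distal convoluted tubule markers; there Trpm6 stayed above 0 at 0.37 and the other 9 members lay below 0, as did 97.8% of all genes, and the dotted line is the median of all genes (0.03).

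Markers of the segments in which these genes are active were in part higher as well, on the deposited scale. Of 5 distal convoluted tubule markers that are not members, 4 rose in the arrays labelled mutant and 0 fell. Their mean log2 value per array was 10.73 to 10.96 in the arrays labelled mutant and 10.40 to 10.58 in the arrays labelled control. Klhl3, which encodes the adaptor that sends WNK kinases for degradation, and Wnk4, which encodes such a kinase, had log2 differences of 0.39 each (limma adjusted p = 0.0218 and 0.0151). Klhl3 did not pass without control array 1, 3 or 4 or mutant arrays 1 and 2 (0.0524 to 0.0693), nor Wnk4 without mutant arrays 3 and 4 (0.0554). The count was 2 without control array 1 and 1 without mutant arrays 1 and 2. Slc12a3, the sodium chloride cotransporter that defines the segment, did not pass (log2 difference 0.24, limma adjusted p = 0.147, though 0.0341 with the replicate block). Of 7 thick ascending limb markers 3 rose and 0 fell, with a mean log2 value of 11.4 to 11.5 per array labelled mutant and 11.1 to 11.3 per array labelled control. Cldn16, Kcnj1, Slc12a1, Umod and Cldn10 of that list are also among the further magnesium genes below, as is Slc12a3. The thick limb markers and the thick limb magnesium genes are therefore not separate lists. The count of 3 was 2 when mutant array 2 or 4 or control array 1, 2 or 3 was left out, and 1 without mutant arrays 1 and 2.

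Setting each array against its own distal convoluted tubule markers, a comparison added after the data were seen, lowers every gene's difference by that of the markers, so a value below 0 says only that a gene differed by less than they did. With each array centred on the mean of those 5 markers, Trpm6 was still higher under the mutant label (log2 difference 0.37, SE 0.109, limma adjusted p = 0.00770), where 0.421% of all genes were called higher. Cnnm2, Casr and Slc41a3 had differences of -0.03, -0.03 and -0.09 there, and none of these 3 passed (limma adjusted p = 0.694, 0.783 and 0.298). Fxyd2 and Slc41a1 were lower relative to these markers, by -0.23 and -0.38 (limma adjusted p = 0.0315 and 0.00291), so 1 member was called higher and 2 lower, where 80.4% of all genes were called lower. This scaling moved the median log2 difference of all genes to -0.32 and left 84 genes called higher and 16028 lower, against 517 and 925 without it. Centred on the 7 thick ascending limb markers, which moved the median of all genes to -0.27, the counts of members were the same, beside 0.487% of all genes called higher and 64.5% called lower. Trpm6 stood at 0.41 (limma adjusted p = 0.00568) there, and Casr, a gene of that segment, and Cnnm2 at 0.02 each (0.805 and 0.878).

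**Figure D3:**
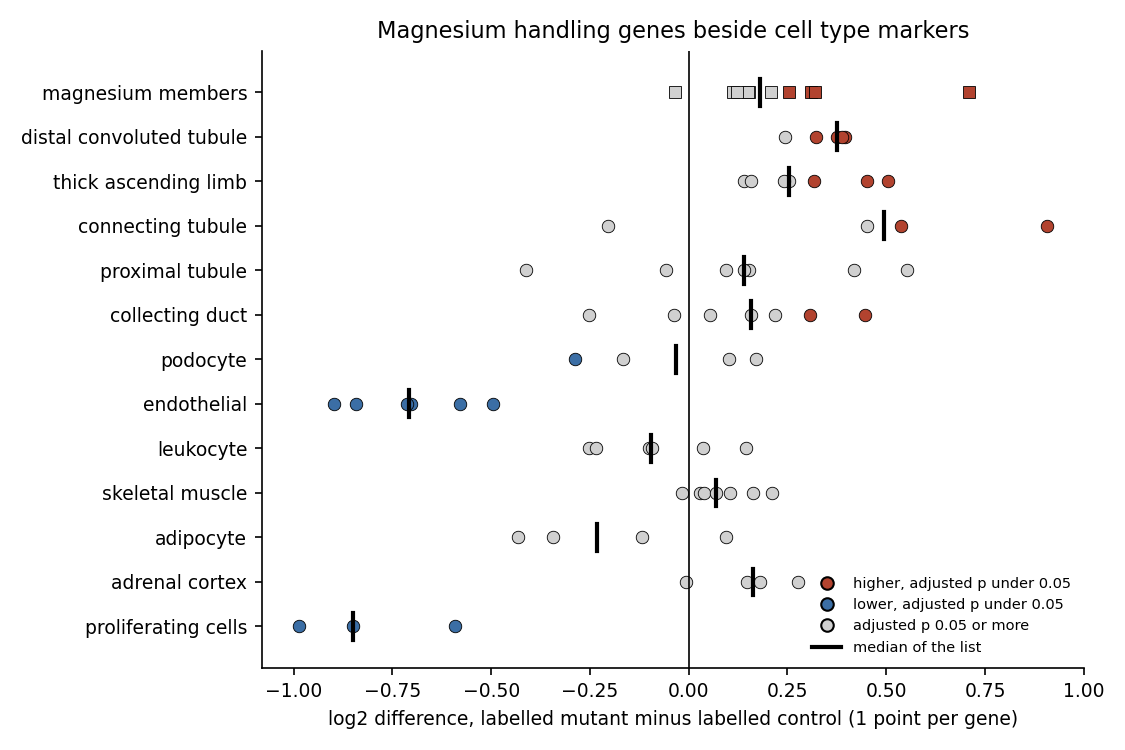
Log2 differences, arrays labelled mutant minus arrays labelled control, of the magnesium handling genes (squares, top row) and of cell type markers (circles), 1 symbol per gene, with the median of each list as a bar. Distal convoluted tubule and thick ascending limb markers all lie above 0 and endothelial and proliferating cell markers all lie below 0 on the deposited scale. On that scale 11587 of all 19936 genes lie above 0 and 8349 below. After centring on the distal convoluted tubule markers themselves, 5 of the 7 thick limb markers and 97.8% of all genes lie below 0. The erythroid list, with 2 measured markers, is not drawn.

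Markers of some other cell types differed between the groups as well. All 6 endothelial markers fell in the arrays labelled mutant (mean log2 value 10.05 to 10.16 per array labelled mutant and 10.70 to 10.95 per array labelled control). So did all 3 markers of proliferating cells (6.91 to 7.58 per array labelled mutant and 7.85 to 8.18 per array labelled control), where Top2a did not pass when mutant array 2 or any 1 control array was left out, or mutant arrays 3 and 4 (limma adjusted p from 0.0514 to 0.0948). Of the 7 proximal tubule markers 0 passed in either direction with all arrays, but the glucose transporter gene Slc5a2 was called higher without mutant array 1 or without mutant arrays 1 and 2 (limma adjusted p = 0.0155 and 0.00195). Of the 6 leukocyte, 4 adipocyte and 4 adrenal cortex markers 0 passed either. The leukocyte marker Cd68 was called lower with the replicate block (limma adjusted p = 0.0334), Ptprc without mutant arrays 1 and 2 (0.0107) and the adipocyte marker Cidec without mutant arrays 3 and 4 (0.0374). Of 7 collecting duct markers 2 rose, a count that was 1 without mutant array 1, 2 or 4 or control array 2, and 0 without control array 3 or without mutant arrays 1 and 2. Of 4 measured podocyte markers 1 fell, Podxl (log2 difference -0.29), and 0 did without mutant arrays 1 and 2. The podocyte list had 2 markers above 0 and 2 below. Nphs1 lay above 0 (log2 difference 0.17, limma adjusted p = 0.147) and was called higher only with averaged probe sets (0.0412). Of 2 measured erythroid markers 1 fell, Alas2, the first enzyme of haem synthesis in red cells (log2 difference -2.24). The other, Slc4a1, lay the other way and did not pass (log2 difference 0.25, limma adjusted p = 0.434). Of 4 measured connecting tubule markers, the calcium-binding protein genes S100g and Calb1 rose (log2 differences 0.91 and 0.54), both calls being lost without mutant arrays 1 and 2 (limma adjusted p = 0.0943 and 0.0884), and the sodium-calcium exchanger gene Slc8a1 passed only with the replicate block (0.0275). The remaining marker of that list, Trpv5, lay the other way and did not pass (log2 difference -0.20, limma adjusted p = 0.609). The part of these shifts in cell markers in the values of the members was not tested.

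Among 35 further genes of magnesium transport, listed by role, 30 had a probe set of their own, and 9 rose and 2 fell in the arrays labelled mutant. Over all genes 2.59% were called higher and 4.64% lower, the shares beside which the counts of the 3 lists by role below also stand. The median log2 difference of the further genes was 0.13. With the arrays centred on the distal convoluted tubule markers 1 was higher and 14 of 30 lower, against 80.4% of all genes lower, and on the thick limb markers 3 higher and 12 lower, against 64.5% of all genes lower. The count of 11 was 6 without mutant arrays 1 and 2.

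In the thick limb list, 5 of 10 measured genes rose and 0 fell. Cldn19 and Cldn16, whose claudins form the cation pore of that segment, rose 1.57-fold and 1.42-fold under the mutant label (limma adjusted p = 0.00424 and 0.00451). Cldn19 averaged 10.2 ± 0.153 in the arrays labelled mutant and 9.57 ± 0.172 in the arrays labelled control, and Cldn16 10.3 ± 0.0985 in the arrays labelled mutant and 9.75 ± 0.138 under the control label (SD, n = 4 each). Bsnd, the barttin subunit of the chloride channels that return salt to the blood, was 1.47-fold higher (limma adjusted p = 0.00186). Rragd, a GTPase of mTORC1 signalling that is mutated in a human magnesium-wasting disease, was 1.28-fold higher, and Kcnj1, the potassium channel ROMK, 1.25-fold. The calls of Cldn19, Cldn16 and Bsnd held under all 17 other settings tried at the same threshold, the marker centrings not counted. Centred on the distal convoluted tubule markers, Cldn19 still passed (log2 difference 0.30, limma adjusted p = 0.0361). Cldn16 and Bsnd did not pass there (0.16 and 0.21, limma adjusted p = 0.151 and 0.0733). Centred on the thick limb markers, which include Cldn16, all of these passed (limma adjusted p = 0.0121 for Cldn19, 0.0333 for Cldn16 and 0.0177 for Bsnd). Those of Rragd and Kcnj1 were lost without mutant arrays 1 and 2 (limma adjusted p = 0.0752 and 0.0563). Slc12a1, the sodium-potassium-chloride cotransporter that generates the driving voltage, had the largest difference among genes of this list that did not pass (log2 difference 0.25, limma adjusted p = 0.0588). It did pass under 6 of the 17 other settings (limma adjusted p from 0.0148 to 0.0456, the latter with the replicate block).

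In the distal convoluted tubule list, 3 of 7 measured genes rose and 0 fell, and all 3 encode potassium channels. Kcna1, the channel that sustains the voltage for magnesium entry, had a log2 difference of 0.38 (7.71 ± 0.124 under the mutant label and 7.33 ± 0.0997 under the control label, SD, n = 4 each; limma adjusted p = 0.0142). The Kcna1 values were low, 7.22 to 7.42 in the arrays labelled control and 7.53 to 7.82 in the arrays labelled mutant. The array medians were 7.55 to 7.58. Kcnj10 and Kcnj16, whose products pair in the basolateral membrane, were 1.26-fold and 1.20-fold higher (limma adjusted p = 0.00604 and 0.0144). Kcna1 and Kcnj16 lost the call without mutant arrays 1 and 2 (limma adjusted p = 0.0991 and 0.0633), and Kcnj16 also without control array 2 (0.0503). After centring on the distal convoluted tubule markers the log2 differences of Kcna1, Kcnj10 and Kcnj16 were 0.04, -0.02 and -0.08, none of which passed.

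Among the other transporters and their partners, 1 of 13 measured genes rose and 2 fell. Ptp4a3, a phosphatase that binds CNNM proteins, was 1.48-fold lower (9.04 ± 0.106 under the mutant label and 9.60 ± 0.130 under the control label, SD, n = 4 each; limma adjusted p = 0.00279). Arl15, a small GTPase that also binds CNNM proteins, was 1.37-fold lower (9.94 ± 0.0268 under the mutant label and 10.4 ± 0.121 under the control label, SD, n = 4 each; limma adjusted p = 0.00302). Both calls held under all 17 other settings tried at the same threshold. A relative of Ptp4a3, Ptp4a2, did not pass (log2 difference 0.08, chosen after its value was seen). Cnnm1, a relative of Cnnm2, had a log2 difference of -0.31 and did not pass (limma adjusted p = 0.0538). Under 3 of the 17 other settings Cnnm1 did pass (limma adjusted p from 0.0183, with the replicate block, to 0.0356). Nipal1, of the NIPA magnesium transporter family, was 1.25-fold higher (log2 difference 0.32, limma adjusted p = 0.0421, but 0.0896 with the replicate block). Nipal1 also did not pass when mutant array 1, 2 or 3 or control array 1, 2 or 3 was left out, or without mutant arrays 1 and 2 (0.0663 to 0.242). Its values were low, 6.60 to 7.16 over the arrays, below the array medians of 7.55 to 7.58.

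**Figure D4:**
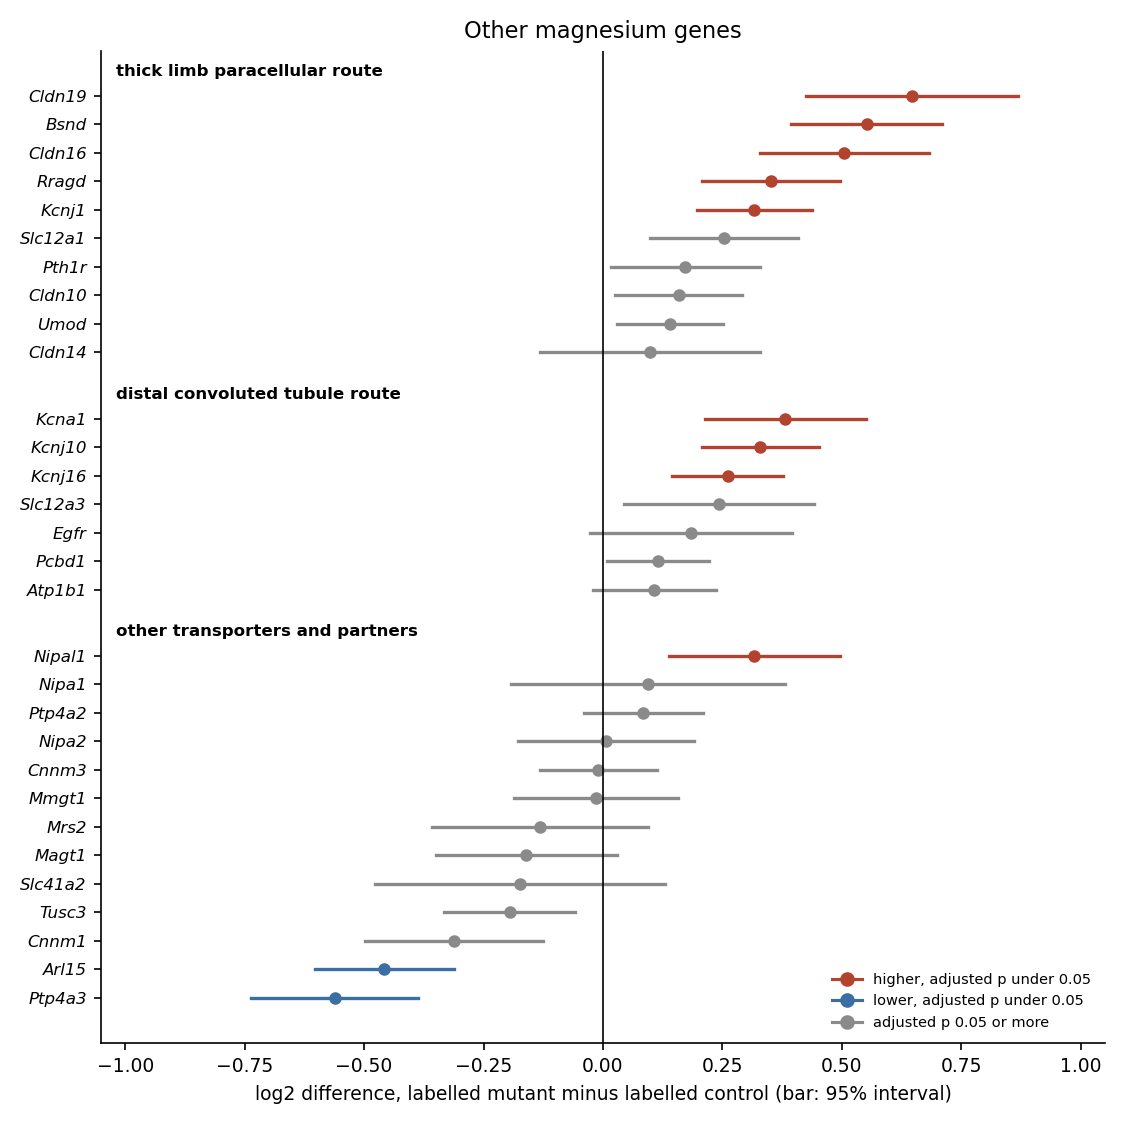
Log2 differences, arrays labelled mutant minus arrays labelled control, of 30 further magnesium genes in 3 lists by role, with 95% intervals (red higher and blue lower at an adjusted p under 0.05, grey otherwise). All 17 thick limb and distal convoluted tubule genes lie above 0 and the transporters and partners lie on both sides. Of all 19936 genes, 11587 lie above 0. After centring on the distal convoluted tubule markers, 12 of those 17 and 97.8% of all genes lie below 0.

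Profiles most like those of the 2 members with the largest differences were found by the root mean square difference over the 8 arrays after each gene was centred on its own mean. For Trpm6 the nearest were Klk1b8 (0.105 log2 units), the kynureninase gene Kynu (0.112) and the tetraspanin gene Tspan1 (0.112), where Trpm6 itself had an SD of 0.412 over the arrays. Klk1b8 belongs to a family of near-identical kallikrein genes, so its probe set may read relatives too. For Casr the nearest were the glutathione peroxidase gene Gpx1 (0.0423), Rragd (0.0442) and the phosphodiesterase gene Pde1a (0.0470), where Casr had an SD of 0.183.

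The promoter windows of the 4 members that rose are shown because these genes were called in the same direction in a study of a HIF regulator (RefSeq sequences, assembly GRCm38.p6, 250 bases before to 50 after an annotated start). Capitals mark the 5-base core of the HIF response element, ACGTG or GCGTG, read on either strand. The windows are chr19:18749480-18749779 on the plus strand for Trpm6, chr19:46761359-46761658 on the plus strand for Cnnm2, chr16:36562085-36562384 on the minus strand for Casr and chr6:90618996-90619295 on the plus strand for Slc41a3. The annotated genes begin at 18730177 for Trpm6, 46756834 for Cnnm2 and 90604730 for Slc41a3. The windows of these genes therefore lie at a start inside the gene, and sequence before its first base was not searched.
Trpm6: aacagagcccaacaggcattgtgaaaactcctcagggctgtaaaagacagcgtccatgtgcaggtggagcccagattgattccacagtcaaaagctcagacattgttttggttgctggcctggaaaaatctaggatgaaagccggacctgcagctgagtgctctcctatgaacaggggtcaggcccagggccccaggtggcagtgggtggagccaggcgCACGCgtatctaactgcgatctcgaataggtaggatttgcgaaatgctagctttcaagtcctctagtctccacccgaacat
Cnnm2: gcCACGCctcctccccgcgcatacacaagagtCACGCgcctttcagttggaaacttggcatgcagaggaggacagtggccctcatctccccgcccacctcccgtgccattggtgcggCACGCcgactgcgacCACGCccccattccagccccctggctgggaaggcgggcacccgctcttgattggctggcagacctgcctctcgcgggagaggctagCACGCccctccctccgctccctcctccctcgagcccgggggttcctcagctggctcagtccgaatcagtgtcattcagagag
Casr: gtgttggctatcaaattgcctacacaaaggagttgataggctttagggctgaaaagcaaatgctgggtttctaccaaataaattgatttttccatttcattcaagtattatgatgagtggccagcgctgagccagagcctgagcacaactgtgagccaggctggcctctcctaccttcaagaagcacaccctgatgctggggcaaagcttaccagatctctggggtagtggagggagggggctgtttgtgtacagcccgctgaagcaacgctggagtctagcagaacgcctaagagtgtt
Slc41a3: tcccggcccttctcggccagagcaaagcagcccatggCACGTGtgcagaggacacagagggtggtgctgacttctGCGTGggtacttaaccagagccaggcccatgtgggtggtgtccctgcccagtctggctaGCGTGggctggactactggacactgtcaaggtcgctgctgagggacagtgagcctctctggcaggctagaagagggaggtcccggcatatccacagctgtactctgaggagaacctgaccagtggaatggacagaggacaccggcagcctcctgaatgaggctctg

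The Trpm6 window held 1 match to the core, Cnnm2 5, Casr 0 and Slc41a3 4, of which 2 overlap in 1 palindrome. The windows had a GC content of 53.0% for Trpm6, 66.7% for Cnnm2, 49.7% for Casr and 61.0% for Slc41a3. Of the 10 members 9 had a window in the table, with 11 windows in all, since Egf and Pvalb had 2 each; Fxyd2 had none. Of these 11 windows 8 held the core, as did 43.8% of the 32851 windows of all genes. The Trpm7 window held 6 matches, of which 4 overlap in 2 palindromes. A half-site of the tubule transcription factor HNF1, GTTAAT on either strand, was in 0 of the 11 windows and in 7.10% of all windows. These matches are letters in a window and do not show binding.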

How the data were processed

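Whole-kidney RNA from 4 mice labelled mutant and 4 labelled control was hybridised to 1 Affymetrix array each. The authors' deposited values were on a log2 scale (1.92 to 14.66, array medians 7.55 to 7.58). Per the submitters' processing notes limma was used, with no version given; how probes were summarized and normalized, and the build, are not given in the sources used here.

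Of 35556 probe sets, 21789 named exactly 1 gene, 1621 several, and 12146 were unlisted; the highest-mean probe set per gene gave 19936 genes. Symbols were updated to RefSeq names of GRCm38.p6 (21701 matched, 88 kept the platform symbol). Of all listed genes 10 had no probe set of their own. Differences, arrays labelled mutant minus arrays labelled control, came from limma 3.58.1 under R 4.3.3 (lmFit, then eBayes, 1 factor, two-sided) on unfiltered values, with Benjamini-Hochberg adjustment over all genes and calls at an adjusted p under 0.05. Folds are 2 raised to the absolute difference. The number of arrays limits precision: the median SE of a member's difference was 0.0667. Over genes, arrays correlated at 0.992 to 0.997 within groups and 0.987 to 0.993 between them.

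Deviations from group means correlated at 0.138, 0.153, 0.295 and 0.175 between same-numbered arrays, all above 0.1, so the numbers were taken to pair arrays. Mutant array 2 and control array 1, of unlike number, also lay above 0.1 (0.111), so the cutoff does not single out same-numbered arrays. The pairing comes from the data, not the labels. The main test has no block.

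Members, gene lists, Egln3 and Car9 were chosen with earlier results of these data known. Named genes are all members, Vhl, Egln3, Car9, the called further magnesium genes up to 12 and the 2 uncalled ones of largest difference, at most 2 markers of largest difference per list, and the 3 nearest profiles of the 2 most changed members. Slc12a3, Ptp4a2, Top2a, Slc8a1, Trpv5, Umod and Cldn10 were added after their values were seen. Alternatives were quantile normalization, median centring, the upper 60% of genes by mean, array weights, eBayes with trend and robust, averaging the probe sets of a gene, the replicate block, an adjusted p under 0.01, leaving out each array, and leaving out mutant arrays 1 and 2 or 3 and 4 together; centring on segment markers was added after the data were seen.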

Additional observations from a re-analysis of the deposited data

Results flagged for a closer look

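Slc41a1 on mutant array 1 read 9.87, below the other 3 arrays labelled mutant, which read 10.04 to 10.06. The gap to its neighbour was 0.866 of the group's range, above the 95% critical value of Dixon's test for 4 samples. This was the 1 array singled out among 26 groups of 4 values looked at (the 10 members, Vhl, Egln3 and Car9 in both groups), and chance gives about 1 in 20 groups.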

How the results depend on the processing

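The count of members called, 4, was 4 with quantile normalization, median centring, the upper 60% of genes, eBayes with trend and robust, the replicate block and averaged probe sets, and 3 with array weights. It was 1 at an adjusted p under 0.01, 2 to 4 with 1 array left out, 1 without mutant arrays 1 and 2 together and 3 without mutant arrays 3 and 4 together. Trpm6 kept its call under every alternative run at the 0.05 threshold, including both marker centrings. The replicate block changed no call of a member; of the genes named it changed those of Vhl, Slc12a1, Slc12a3, Slc8a1, Cd68, Cnnm1 and Nipal1, given beside them. The count over all genes, 1442, was 602 at an adjusted p under 0.01 and 902 to 1368 with 1 array left out (917, 903 and 902 without mutant array 2, control array 2 and control array 3), 16112 with centring on the distal convoluted tubule markers and 12951 with centring on the thick limb markers. Quantile normalization gave 697 higher and 878 lower. Mutant arrays 3 and 4 left out together gave 676 higher and 885 lower, and the threshold of 0.01 gave 148 and 454. The further magnesium genes called, 11, were 7 at an adjusted p under 0.01, 9 to 13 with 1 array left out and 6 without mutant arrays 1 and 2 together.

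The log2 difference of Vhl, 0.29, lost its call with the replicate block (0.29) and without mutant arrays 1 and 2 (0.35) or 3 and 4 (0.23) together. With 1 array left out it ran from 0.25 to 0.35, and the call held only without mutant array 1 or control array 4. Signs turned with centring on the distal convoluted tubule markers and on the thick limb markers for Vhl (-0.0523 and -0.00268), Trpm7 (-0.19 and -0.14), Cnnm4 (-0.19 and -0.14), Egf (-0.14 and -0.0878), Fxyd2 (-0.23 and -0.18), Slc41a3 (-0.0910 and -0.0414) and Pvalb (-0.22 and -0.17), and with the distal convoluted tubule markers alone for Cnnm2 (-0.0344) and Casr (-0.0260); these scalings subtract markers that were themselves higher. With 1 array left out Pvalb ran from -0.0411 to 0.27 and Slc41a1 from -0.0573 to 0.0118; with mutant arrays 1 and 2 both left out they stood at -0.25 and 0.00732. The cause was not tested. The depth of a microarray is not given by its values, and the number of arrays limits what could be called.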
